A study of Gallus gallus with 15 samples.

Results

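The comparison described here sets female Korat chickens (KRC) fed L-histidine against those fed the basal diet, and uses 10 of the 15 breast muscle libraries of the study. Its members were chosen by diet alone, as the 5 birds of the L-histidine group (C) and the 5 birds of the non-supplemented group (A), and every gene with enough counts was tested. KRC is a Thai crossbred meat chicken. Group A received the basal diet without the supplement, and group C the diet with 0.5% L-histidine from 4 to 10 weeks of age. Groups consisted of 5 cages of 20 birds, 1 bird per cage was sampled at 10 weeks of age, and 1 library of poly(A) RNA was sequenced from each bird. The 5 birds of another group (B), fed 1% β-alanine, do not enter the fit and are given beside the others where they bear on a result. Every bird of a group came from a different cage, and p-values measure the spread between single birds.

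Carnosine is a dipeptide of β-alanine and L-histidine that carnosine synthase joins in skeletal muscle, where it buffers the acid made by glycolysis and binds metal ions. Its methylated form, anserine, is abundant in bird breast muscle. The breast muscle of the chicken consists almost wholly of fast glycolytic fibres, which live on glycogen and phosphocreatine and hold few mitochondria. L-Histidine is an essential amino acid, so that carnosine and protein synthesis draw on the same dietary supply.

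The libraries held 10620229 to 14964384 counted fragments per bird. Levels are given as normalized FPKM, the count divided by the exonic length of the gene and by the library size after scaling by relative log expression (RLE). Fast fibre markers were abundant in all 10 birds, and ACTA1, skeletal muscle actin, ranged over 55355 to 89854 normalized FPKM in group A and 36520.1 to 77329.6 in group C. Of 4 tested markers of this type 3 were nominally lower in group C, and the summed level of the 5 markers in the table was 78345 to 127973 in group A and 50305 to 97185 in group C. The parvalbumin gene PVALB was the exception among these markers, under 1 normalized FPKM in every bird. Birds 3 and 4 of group A (A3 and A4) and bird 2 of group C (C2) stood apart. Across genes, the deviation of a library from the mean of the 10 fell with exonic length in A3 (Spearman's rho -0.527) and A4 (-0.415), whereas rho lay between -0.138 and 0.357 in the other 8 birds. The scaling factor of A4 was 0.68 against 0.864 to 1.22 elsewhere, and its 10 most abundant genes took 40.7% of the counts against 24.55% in C2. In the authors' quality report, A3 and A4 had the lowest mapping rates and the highest GC contents of all libraries of the study. C2 held the transcripts of slow fibres, as described later. The summed level of 5 endothelial markers was 44.4 to 59.9 normalized FPKM in group A and 59.2 to 85.7 in group C. Of these 5 markers, 2 were nominally higher in group C and 0 lower. PECAM1 was at 8.11 to 24.7 in group A and 19.8 to 45.5 in group C. VWF was at 15.5 to 21.9 and 17.9 to 21.1, and CDH5 at 6.38 to 12.9 and 10.1 to 13.1. The summed level of 5 leukocyte markers was highest in C2, at 553 against 101 to 364 in the other birds, and that of 5 fat cell markers was highest in A5 (353) and C4 (209). In such bulk tissue, fewer cells of a type and less RNA per cell cannot be told apart. The part of these libraries and cell types in the results was not tested beyond the values given beside each result.

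Of 17475 genes in the table, 11771 had a mean count of at least 10 over the 10 birds and were tested. With edgeR's quasi-likelihood test (adjusted p under 0.05 after Benjamini-Hochberg, fold change of at least 1.5), 1 gene fell in group C (0.0085% of the genes tested) and 0 genes rose (0%). Over all tested genes the median log2 fold change was 0.013, and the median standard error (SE) was 0.27. Below, a gene is called nominally higher or lower where its unadjusted p was under 0.05. That held for 782 genes higher (6.64%) and 1056 genes lower (8.97%) in group C. These nominal shares are the background of every list below. The lists were written with earlier results of these data known, so a share above the background is no test of a list. The nominal numbers depended on the birds and the scaling. Without A3 and A4, 391 genes were nominally higher and 287 nominally lower (2.44%). With library totals in place of RLE the numbers were 1763 and 214. The median over all tested genes then moved to a log2 fold change of 0.30. All fold changes below are therefore relative to the RLE-scaled libraries. In 116 genes (0.985%) all birds of group C lay above all birds of group A, and in another 116 (0.985%) they all lay below. DESeq2, run on the same genes and birds, called 32 genes higher (0.272%) and 55 lower (0.467%), and in 55 of these 87 genes the groups did not overlap.

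**Figure D1:**
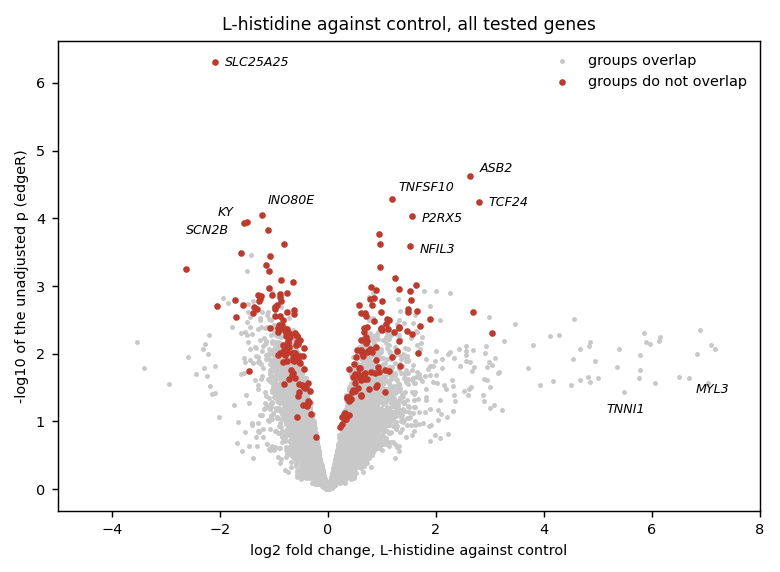
Each point is 1 of 11771 tested genes, with its log2 fold change of L-histidine against control on the x axis and −log10 of its unadjusted edgeR p on the y axis. Red points are the 232 genes whose groups do not overlap. SLC25A25 stands alone at the top left, and the points on the far right, among them TNNI1 and MYL3, are genes whose groups overlap and whose level is high in a single bird of group C.

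The gene that fell was SLC25A25, which encodes a calcium-regulated carrier that exchanges ATP-Mg for phosphate across the inner mitochondrial membrane and so sets the adenine nucleotide content of mitochondria. The gene lies on chromosome 17 from 5166905 to 5192131 (GRCg6a). Its level was 32.7, 29.6, 24.7, 31.5 and 37.8 normalized FPKM in the control birds A1 to A5, and 6.97, 6.39, 6.99, 11.4 and 5.2 in the L-histidine birds C1 to C5. The lowest control bird held more than 2 times the level of the highest L-histidine bird. The mean and SD of 5 birds were 31.2 ± 4.75 normalized FPKM over group A and 7.39 ± 2.36 over group C, which gave a log2 fold change of -2.08 ± 0.23 (SE) with an adjusted p of 0.00581 by edgeR's quasi-likelihood test. DESeq2 gave an adjusted p of 9.10e-16. Leaving out each bird in turn gave log2 fold changes from -2.29 to -1.98 with adjusted p-values from 0.00113 to 0.0413, so the call did not rest on a single bird. Nor did it need A3 and A4, without which the log2 fold change was -2.17 with an adjusted p of 0.0331. The call was lost when library totals replaced the scaling (adjusted p = 0.0613), when the β-alanine birds entered the fit (adjusted p = 0.164) and when A3, A4 and C2 were left out together (adjusted p = 0.0716). Birds of group B spanned both levels, at 8.43, 12.7, 17.4, 34.4 and 2.51 normalized FPKM. Of 38 tested genes of the mitochondrial carrier family, SLC25A25 was the only one to pass. In the same list 2 genes were nominally higher and 6 nominally lower, and the median log2 fold change of the list was -0.045.

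**Figure D2:**
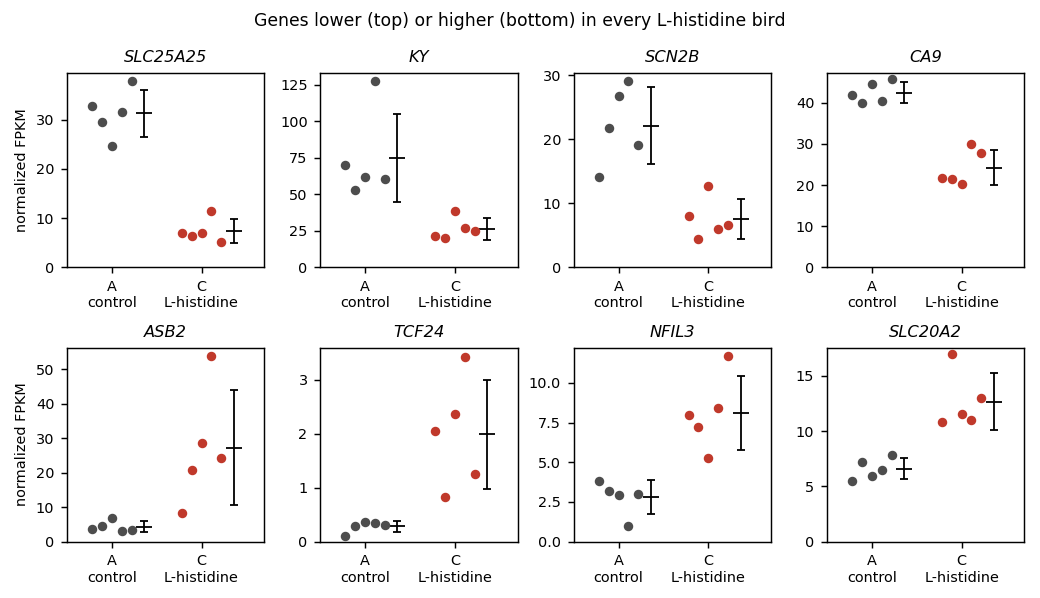
Normalized FPKM (y axis) of 8 genes in the 5 control birds (A, grey) and the 5 L-histidine birds (C, red), with a point per bird and the mean ± SD beside the points. The genes were taken from those whose groups do not overlap, and SLC25A25 alone passed the adjusted test. Its L-histidine birds lie between 5.20 and 11.4 and its control birds between 24.7 and 37.8.

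Of the genes higher in every bird of group C by at least 1.5-fold (86 genes, 4 of them with LOC identifiers), none of the 12 with the smallest p passed the adjusted edgeR test. ASB2, the substrate-binding subunit of a cullin ubiquitin ligase of muscle, lies on chromosome 5 from 45552811 to 45586074. Its level was 3.58, 4.56, 6.89, 3.2 and 3.5 normalized FPKM in A1 to A5 and 8.4, 20.8, 28.7, 53.7 and 24.2 in C1 to C5. The groups did not overlap, yet C1 lay close to the highest control bird and C4 far above the rest. This gave a log2 fold change of 2.64 ± 0.41 (SE) and the second smallest adjusted p, 0.139 by edgeR and 5.59e-08 by DESeq2. Without C1, the bird nearest to the controls, ASB2 passed the edgeR test.

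TNFSF10, the death ligand TRAIL, had 2.79, 3.46, 2.36, 3.0 and 3.51 normalized FPKM in A1 to A5 and 8.97, 7.75, 5.85, 4.94 and 6.86 in C1 to C5, a log2 fold change of 1.18 ± 0.20 (SE). TCF24, a basic helix-loop-helix transcription factor, was near the limit of detection in group A (0.0975 to 0.371 normalized FPKM) and reached 2.05, 0.822, 2.36, 3.43 and 1.26 in group C, a log2 fold change of 2.81 ± 0.48 (SE). NFIL3, a leucine zipper repressor of clock output genes, had 3.85, 3.18, 2.93, 0.997 and 3.0 in A1 to A5 and 7.96, 7.24, 5.29, 8.42 and 11.7 in C1 to C5, a log2 fold change of 1.53 ± 0.31 (SE). Every L-histidine bird exceeded the highest control bird in these 3 genes, which the rule that chose the set required. DESeq2 called them, with adjusted p-values of 1.78e-04, 1.78e-04 and 0.00148. The adjusted p by edgeR was 0.172 for TNFSF10 and TCF24 and 0.233 for NFIL3.

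By the same rule, the groups did not overlap in the other 8 genes of this set. SLC20A2, a sodium-dependent phosphate transporter, ranged over 5.52 to 7.83 normalized FPKM in group A and 10.8 to 17 in group C, and P2RX5, an ATP-gated ion channel, over 0.347 to 0.548 and 0.865 to 2.37. LPIN1, a phosphatidic acid phosphatase that also acts as a transcriptional coactivator, ranged over 3.33 to 5.86 and 7.34 to 10.5. PDE10A, which breaks down cyclic AMP and cyclic GMP, had a log2 fold change of 1.25 ± 0.29 (SE) with ranges of 2.1 to 3.82 and 4.1 to 11.5. PANK1, which catalyzes the first step of coenzyme A synthesis from pantothenate, had one of 1.32 ± 0.32 (SE). CXCR4, the receptor of the chemokine CXCL12 and a gene of leukocytes and satellite cells, had one of 1.64 ± 0.39 (SE) from levels of 0.326 to 0.777 to 0.902 to 2.23 normalized FPKM. The remaining genes of this set were YPEL1, a member of the yippee-like family, at 0.80, and the transmembrane protein gene TMEM140 at 0.96. In C1 to C5 CXCR4 had 2.23, 1.97, 1.42, 0.902 and 1.26 normalized FPKM, and the summed leukocyte markers had 364, 553, 252, 105 and 268. C1 and C2 were the highest and C4 the lowest of group C in both. In A1 to A5 CXCR4 had 0.598, 0.352, 0.4, 0.326 and 0.777, and the summed markers had 332, 101, 278, 288 and 308. The sums of the groups thus overlapped, and CD74 alone made up 510 of the 553 in C2. The part of leukocytes in the difference of CXCR4 was not tested.

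Among the genes lower in every bird of group C by at least 1.5-fold (83 genes, 12 of them with LOC identifiers), SLC25A25 had the smallest p and the next 11 with a gene name did not pass the adjusted edgeR test. KY, the kyphoscoliosis peptidase of the muscle Z-disc, lies on chromosome 9 from 3857749 to 3879247. Its level was 70.4, 53.2, 62, 128 and 60.4 normalized FPKM in A1 to A5 and 21.4, 20.1, 38.7, 26.9 and 24.9 in C1 to C5. A4 lay far above the other control birds, and the log2 fold change was -1.50 ± 0.28 (SE) in all birds and -1.21 without A3 and A4. SCN2B, the β2 subunit of voltage-gated sodium channels, had 14.1, 21.7, 26.7, 29.1 and 19.1 in A1 to A5 and 8.07, 4.37, 12.7, 5.92 and 6.66 in C1 to C5, a log2 fold change of -1.55 ± 0.29 (SE). The 2 groups were separated in SCN2B by little more than 1 normalized FPKM, between A1 and C3, and without C3 the gene passed the adjusted edgeR test. GRIP2, a scaffold protein of receptors at synapses, had a log2 fold change of -1.11 ± 0.21 (SE) from levels of 1.86 to 2.59 to 0.681 to 1.32. CNTFR, the receptor of ciliary neurotrophic factor, had one of -1.08 ± 0.23 (SE) from 4.93 to 7.0 to 1.7 to 3.98.

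A pair of mitochondrial matrix phosphatases belonged to the same set. PPM1K, which activates the breakdown of branched-chain keto acids, had 20.7, 11.3, 15.3, 18.1 and 19.7 normalized FPKM in A1 to A5 and 11.1, 8.0, 5.51, 8.91 and 5.19 in C1 to C5. PDP1, which activates the pyruvate dehydrogenase complex, had 43.3, 38.3, 31.7, 43.2 and 24.9 in A1 to A5 and 21, 11.9, 13.3, 16.2 and 23.2 in C1 to C5. In PPM1K the highest L-histidine bird (C1) nearly reached the lowest control bird (A2), and in PDP1 C5 lay just under A5. The log2 fold changes were -1.13 ± 0.25 (SE) and -1.08 ± 0.24 (SE). NT5C1A, a nucleotidase that turns AMP into adenosine, had a log2 fold change of -0.87 ± 0.20 (SE), and CA9, a carbonic anhydrase of the cell surface that handles the bicarbonate buffer, one of -0.81 ± 0.16 (SE). CA9 had 41.8, 39.9, 44.6, 40.3 and 45.9 in A1 to A5 and 21.8, 21.4, 20.3, 29.9 and 27.7 in C1 to C5. INO80E, a subunit of a chromatin remodeling complex, had one of -1.22 ± 0.22 (SE), which without A3 and A4 was -0.90. SMIM11, a small membrane protein, and DUSP22AL, named as a relative of the phosphatase DUSP22, had -1.09 and -0.75. By edgeR's quasi-likelihood test the adjusted p lay between 0.172 for INO80E, KY and SCN2B and 0.295 for DUSP22AL, and DESeq2 called all 11 genes named here beside SLC25A25.

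None of the enzymes that make and use carnosine passed the adjusted test. CARNS1, carnosine synthase, lies on chromosome 5 from 205432 to 212376 and had 103, 92, 115, 74.9 and 74.9 normalized FPKM in A1 to A5 and 53.4, 50.1, 105, 109 and 70.3 in C1 to C5. C1, C2 and C5 lay under every control bird, while C3 and C4 lay within the control range. The log2 fold change was -0.25 ± 0.26 (SE) with an unadjusted p of 0.354. CARNMT1, which methylates carnosine to anserine, had 10.2 ± 1.23 normalized FPKM over group A and 11.1 ± 0.969 over group C, and CNDP2, a cytosolic dipeptidase, had 13.8 ± 4.19 normalized FPKM over group A and 12 ± 0.778 over group C, with log2 fold changes of 0.12 and -0.20. GADL1, a decarboxylase that in mice makes β-alanine from aspartate, was the only nominally lower gene among the 15 tested of this list, and 0 were nominally higher. Its level was 85, 192, 32.4, 110.1 and 96.1 in A1 to A5 and 16.7, 35, 68.3, 38.7 and 44.4 in C1 to C5, a log2 fold change of -1.35 ± 0.43 (SE). The groups overlapped through A3, which lay under 4 of the L-histidine birds, and the log2 fold change was -1.61 without A3 and A4. HAL, AMDHD1, UROC1 and FTCD, the enzymes of histidine breakdown, and HDC, which makes histamine, had mean counts between 2.7 and 5.5 over the 10 birds and were not tested.

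Genes of proteins that charge, modify or carry histidine did not pass the test either. HARS, the tRNA synthetase of histidine, had a log2 fold change of -0.26 ± 0.18 (SE), SETD3, which methylates a histidine of actin, one of -0.37 ± 0.21 (SE), and METTL9, a protein histidine methyltransferase, one of -0.32 ± 0.20 (SE). The lysosomal carrier SLC15A4, which moves histidine and dipeptides, had 9.49 ± 1.63 normalized FPKM over group A and 10.2 ± 3.63 over group C. Among 21 transporters of amino acids and peptides, 3 were nominally higher (14.3%) and 2 nominally lower (9.52%), with a median log2 fold change of 0.34. SLC7A5 is a subunit of a carrier that takes up histidine and other large neutral amino acids. Its level was 26.8, 37.9, 31.7, 82.2 and 34.3 normalized FPKM in A1 to A5 and 18.4, 13, 26.3, 24.1 and 19.3 in C1 to C5. No L-histidine bird reached the lowest control bird, C3 and A1 lying closest. The log2 fold change of -1.07 ± 0.31 (SE) drew on A4 and was -0.70 without A3 and A4. SLC38A4, another neutral amino acid carrier, had a log2 fold change of -1.04 with overlapping groups. SLC38A9, a lysosomal arginine sensor upstream of mTOR, had 1.05 to 2.02 in group A and 2.18 to 2.56 in group C, and SLC7A3, a carrier of cationic amino acids, had a log2 fold change of 0.69 ± 0.27 (SE). SLC6A6, the carrier of taurine and β-alanine, had a log2 fold change of 1.60 that came from C2, at 13.4 normalized FPKM against 1.0 to 1.71 in group A, and without C2 it was 0.24. In the list of amino acid stress response and folate cycle genes, 2 of 22 were nominally lower and 0 higher. The lower share was 9.09%, against 8.97% of all tested genes. MTHFD2, a mitochondrial folate enzyme, had the smallest p of the list, at -0.63 ± 0.19 (SE).

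**Figure D3:**
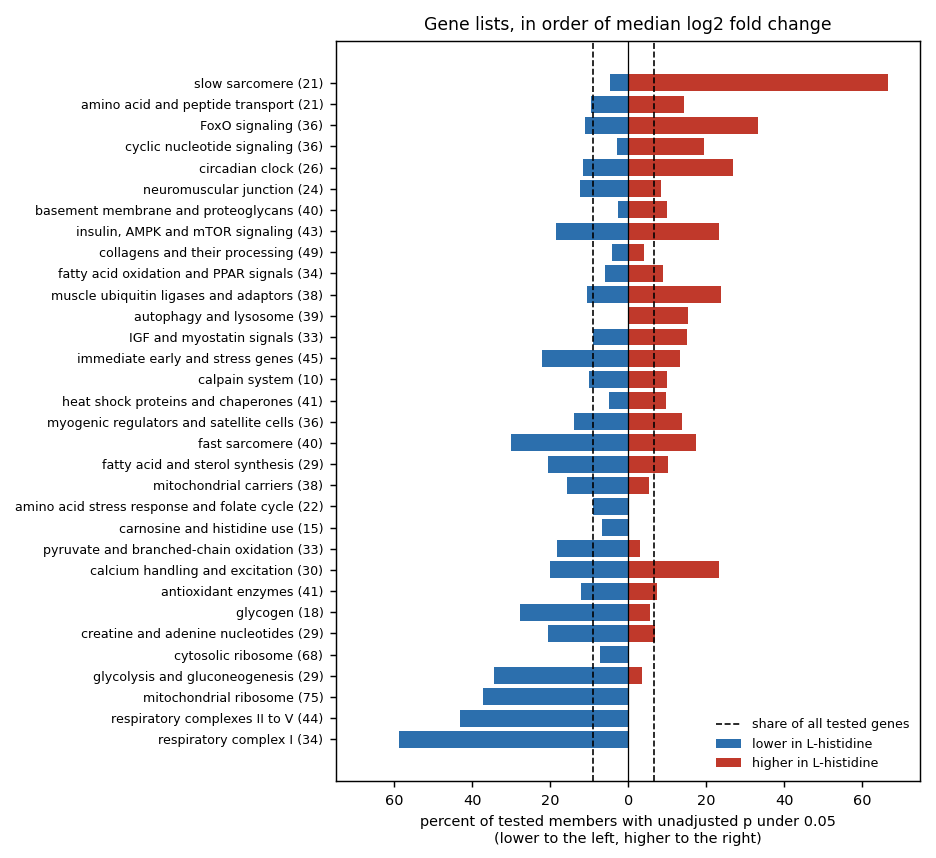
Share of the tested members of each gene list (number in brackets) that were nominally lower (blue, to the left) or nominally higher (red, to the right) in the L-histidine birds, in order of the median log2 fold change of the list. Dashed lines mark the shares over all tested genes, 8.97% lower and 6.64% higher. The respiratory complexes at the bottom and the slow sarcomere list at the top lie farthest from them. The lists were written with earlier results of these data known, so distance from the lines is no test of a list.

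In the list of FoxO signaling, which links insulin and energy state to atrophy, cell cycle and stress genes, 12 of 36 tested genes were nominally higher (33.3%) and 4 nominally lower (11.1%). The median log2 fold change was 0.33, and without A3 and A4 it was 0.28 with 10 higher and 3 lower. FOXO1, the transcription factor itself, had 2.68, 1.96, 1.25, 0.993 and 1.28 normalized FPKM in A1 to A5 and 1.97, 2.86, 2.42, 4.96 and 5.64 in C1 to C5. C4 and C5 lay above every other bird, and the remaining L-histidine birds lay within or just above the control range, for a log2 fold change of 1.12 ± 0.34 (SE). IRS2 couples the insulin receptor to its kinases and is a FoxO target in mammals. It had 1.65, 0.961, 4.29, 1.35 and 1.15 in A1 to A5 and 3.99, 8.84, 3.9, 9.08 and 3.11 in C1 to C5. Only A3 overlapped with the L-histidine birds, and the log2 fold change was 1.62 ± 0.44 (SE). SGK1, a kinase that phosphorylates FoxO factors, had 2.57 to 4.74 in group A and 5.2 to 6.89 in group C without overlap. Lower in this list were CDKN1A, the cell cycle inhibitor p21, at -1.48 ± 0.39 (SE), and PRKAA2, the α2 catalytic subunit of AMP-activated kinase, at -1.03 ± 0.25 (SE).

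The ubiquitin ligases of muscle atrophy are known targets of FoxO factors. TRIM63 had 228, 94.7, 264, 69.1 and 64.1 normalized FPKM in A1 to A5 and 232, 253, 187, 272 and 389 in C1 to C5. A1 and A3 lay within the range of group C, the other 3 control birds below it, and the log2 fold change was 0.89 ± 0.40 (SE). FBXO32 had 7.23 to 47.6 in group A and 25.7 to 57.8 in group C, a log2 fold change of 0.63 ± 0.41 (SE). Of 38 muscle ubiquitin ligases and adaptors, 9 were nominally higher (23.7%) and 4 nominally lower. Beside ASB2, they included KLHL24, a cullin 3 adaptor, at 1.58 ± 0.44 (SE), SPSB1, a cullin 5 adaptor, at 0.92 ± 0.28 (SE), ASB5, a relative of ASB2, at 0.80 ± 0.24 (SE), and TRAF6, a ligase of signaling complexes, at 0.69 ± 0.18 (SE). Of 39 genes of autophagy and the lysosome, 6 were nominally higher (15.4%) and 0 lower, with a median of only 0.031. CTSV, a lysosomal cathepsin, had 26.8 to 52.7 in group A and 52.1 to 77.4 in group C, a log2 fold change of 0.83 ± 0.20 (SE). PLA2G15, which breaks down phospholipids in lysosomes, was at 1.10 ± 0.33 (SE). ULK1 and RB1CC1, which form the kinase complex that starts autophagy, had 0.86 and 0.82, and ATG14, a subunit of the lipid kinase that follows, 0.54. None of the genes in this paragraph other than ASB2 had an adjusted p by edgeR under 0.295.

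Clock genes lay on both sides. Of 26 tested, 7 were nominally higher (26.9%) and 3 nominally lower (11.5%), with a median log2 fold change of 0.26, which was 0.12 without A3 and A4. In the negative limb, CRY1 had 51.3, 45.2, 29, 25 and 42.9 normalized FPKM in A1 to A5 and 76.7, 53.1, 48.5, 77.1 and 83.5 in C1 to C5, a log2 fold change of 0.81 ± 0.24 (SE), and PER2 had 2.68 to 14.2 and 7.0 to 17.5, with one of 0.84 ± 0.39 (SE). In the positive limb, ARNTL (BMAL1) had 1.19 to 2.87 and 2.03 to 4.11, with one of 0.63 ± 0.32 (SE). The groups of these 3 genes overlapped. PPARA, a nuclear receptor for fatty acids that is also a clock output, had a log2 fold change of 1.09 ± 0.34 (SE). Without C2 the log2 fold change of PPARA was 0.81. NOCT, a rhythmic phosphatase of nicotinamide dinucleotides, had 118, 30.7, 84.7, 69.5 and 17.4 in A1 to A5 and 17.3, 11, 13.4, 29.3 and 33.8 in C1 to C5. The control birds varied widely, and 3 of them lay above all L-histidine birds, for a log2 fold change of -1.61 ± 0.48 (SE). BHLHE40, a repressor of clock genes, had 83.5 to 132 in group A and 34.3 to 103 in group C. NR1D1 (REV-ERBα) had a log2 fold change of -0.94 ± 0.51 (SE) that came from A3, at 112 normalized FPKM against 21.1 to 37.3 in the other control birds, and without A3 and A4 it was -0.14. The sources used here do not give the hour at which each bird was sampled.

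In the insulin, AMPK and mTOR list, 10 of 43 genes were nominally higher and 8 nominally lower, which is 23.3% and 18.6% against 6.64% and 8.97% of all genes. EIF4EBP1, the brake on translation that mTOR releases, had 757, 534, 812, 725 and 661 normalized FPKM in A1 to A5 and 378, 311, 563, 383 and 407 in C1 to C5. C3 alone entered the control range, at its lower end, and the log2 fold change was -0.77 ± 0.21 (SE). PRKAA2 had 20.8, 20.1, 13.9, 31.4 and 17.9 in A1 to A5 and 9.97, 7.8, 15, 10.1 and 8.09 in C1 to C5, where again C3 alone reached the controls. PIK3R6, which regulates the γ form of phosphoinositide 3-kinase, had 8.88 to 20.5 in group A and 5.79 to 8.26 in group C, a log2 fold change of -0.94 that was -0.50 without A3 and A4. PRR5L, which binds the second mTOR complex, had 0.166 to 0.365 and 0.407 to 1.58, with a log2 fold change of 1.53 ± 0.39 (SE). Of 33 genes of insulin-like growth factor and myostatin signals, 5 were nominally higher (15.2%) and 3 lower (9.09%). MSTN, myostatin, had 50.2 ± 14.9 normalized FPKM over group A and 44.1 ± 18.5 over group C and overlapping groups. BMP4, a secreted growth factor, had 3.85 to 6.66 in group A and 6.2 to 10.3 in group C, and NBL1, which binds and blocks such factors, had 5.85 to 12.8 and 3.81 to 7.16. IGF2BP3, an RNA-binding protein, had a log2 fold change of 1.13 ± 0.31 (SE) without overlap, and IGFBP4, a binding protein of insulin-like growth factors, one of -1.03 ± 0.32 (SE) with overlap.

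Genes of glucose use tended to lie lower in group C, though less so once A3 and A4 were left out. Of 29 genes of glycolysis and gluconeogenesis, 10 were nominally lower (34.5%) and 1 higher, with a median log2 fold change of -0.40. Without A3 and A4, 2 were nominally lower (6.9%, against 2.44% of all tested genes) and the median was -0.16. With C2 left out as well the median was -0.13. PFKFB4, which makes the activator of phosphofructokinase, had 217, 236, 316, 365 and 229 normalized FPKM in A1 to A5 and 137, 157, 164, 188 and 163 in C1 to C5. All L-histidine birds lay under all control birds, with a log2 fold change of -0.75 ± 0.20 (SE), and of -0.49 without A3 and A4. PGAM1, phosphoglycerate mutase, had 7252, 7714, 11678, 15216 and 7743 in A1 to A5 and 4199.99, 2928, 7340.04, 5817 and 4688 in C1 to C5. A3 and A4 held the highest levels of all 10 birds, and the log2 fold change was -0.99 ± 0.28 (SE) with them and -0.60 without them. GAPDH and PGK1, the preceding steps of the pathway, had -0.74 and -0.78 with these birds and -0.33 and -0.35 without them, and G6PC3, a glucose-6-phosphatase, -0.98 and -0.51.

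Glycogen genes and those of pyruvate and branched-chain oxidation also held fewer nominally lower members without A3 and A4. The nominally lower share of all tested genes fell as well, from 8.97% to 2.44%. Of 18 glycogen genes, 5 were nominally lower (27.8%) and 1 higher, and 1 was lower (5.56%) without A3 and A4. The median of the glycogen list was -0.24 with these birds and -0.22 without them. PPP1R3C, which brings a phosphatase to glycogen, had a log2 fold change of -1.07 ± 0.38 (SE), and of -1.06 without A3 and A4, and STBD1, which binds glycogen for autophagy, one of -0.90 ± 0.34 (SE). In the list of pyruvate and branched-chain oxidation, 6 of 33 were nominally lower (18.2%) and 1 higher, with a median of -0.17. Without A3 and A4, 3 were nominally lower (9.09%) and the median was -0.0053. Beside PPM1K and PDP1, the nominally lower genes in all birds included LIPT2, which supplies the lipoyl group of both dehydrogenase complexes, at -1.06 ± 0.29 (SE), and SIRT4, a mitochondrial sirtuin, at -1.17, which was -0.48 without A3 and A4. Of 34 genes of fatty acid oxidation and PPAR signals, 3 were nominally higher (8.82%) and 2 lower (5.88%), against 6.64% and 8.97% of all tested genes. CPT1A, which admits fatty acids to mitochondria, had a log2 fold change of 0.72 ± 0.33 (SE), and PPARGC1A, a coactivator of mitochondrial genes, one of 0.90 ± 0.51 (SE). Of 29 genes of fatty acid and sterol synthesis, 3 were nominally higher and 6 lower. ACSBG1, an acyl-CoA synthetase, had 0.369, 0.254, 0.172, 0.124 and 0.0937 in A1 to A5 and 0.509, 1.43, 0.393, 0.388 and 0.649 in C1 to C5. The groups did not overlap, and the log2 fold change was 1.71 ± 0.49 (SE), or 1.23 without C2. ABCG1, a sterol exporter, had one of 2.70 that was 1.42 without C2, and MFSD2A, a carrier of lysophospholipids, one of -0.91 ± 0.27 (SE).

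Nuclear genes of the respiratory chain and of the mitochondrial ribosome lay lower in group C in nearly every member, and 2 control birds carried most of the difference. Of 34 complex I genes, 34 had a log2 fold change under 0, 20 were nominally lower (58.8%) and 0 higher, with a median of -0.59. For complexes II to V, 43 of 44 lay under 0, 19 were nominally lower (43.2%) and the median was -0.50. For the mitochondrial ribosome, 74 of 75 lay under 0, 28 were nominally lower (37.3%) and the median was -0.48. No member of these lists passed the adjusted edgeR test. Relative to the mean of the 10 birds, the median complex I gene stood at 1.47 in A3 and 1.81 in A4, at 0.857 to 0.917 in the other control birds, and at 0.695 to 1.05 in group C. Without A3 and A4, 1 complex I gene, 5 genes of complexes II to V and 1 mitochondrial ribosome gene were nominally lower. The shares were 2.94%, 11.4% and 1.33%, against 2.44% of all tested genes, and the medians were -0.16, -0.15 and -0.13. These genes are also short: the median exonic length was 803 bases in complex I against 3333 bases over all tested genes. With the length trend of each library removed, 5, 6 and 8 members of the 3 lists were nominally lower. The shares were 14.7%, 13.6% and 10.7%, against 7.47% of all tested genes, and the medians were -0.27, -0.18 and -0.13. With library totals in place of RLE they were -0.25, -0.18 and -0.15 beside 0.30 for all genes.

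**Figure D4:**
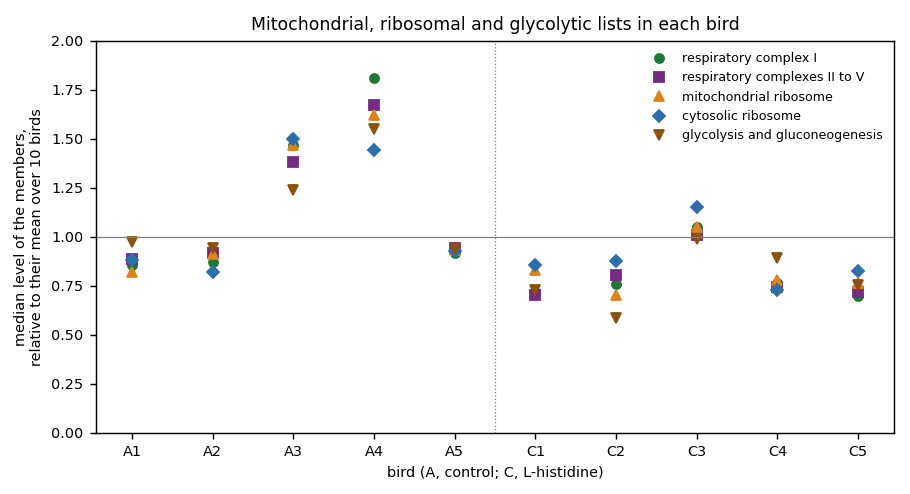
For each bird (x axis), the median over the members of 5 gene lists of the level relative to the gene's mean over the 10 birds (y axis, 1 is the mean). A3 and A4 stand above all other birds in every list, while the other 3 control birds lie between 0.818 and 0.972 and the L-histidine birds between 0.586 and 1.15.

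Groups did not overlap, with group C lower, in 3 of 34 complex I genes and 3 of 44 genes of complexes II to V. The same held for 2 of 75 mitochondrial ribosome genes, and for 0.985% of all tested genes. NDUFC2, an accessory subunit of complex I, had 61.5, 83.5, 113, 130.1 and 61.1 normalized FPKM in A1 to A5 and 55, 53.5, 58.8, 57.2 and 45.6 in C1 to C5, so that the lowest control bird lay just above the highest L-histidine bird. The log2 fold change of NDUFC2 was -0.73, or -0.34 without A3 and A4. NDUFA12 and NDUFS5, other accessory subunits, did not overlap either. They had log2 fold changes of -0.77 and -0.64, or -0.33 and -0.30 without A3 and A4. With the length trend removed, NDUFC2, NDUFA12 and NDUFS5 had -0.37, -0.34 and -0.21. COX19 and COX14, assembly factors of cytochrome oxidase, had -0.63 ± 0.17 (SE) and -0.78 ± 0.23 (SE). Without A3 and A4 they had -0.46 and -0.47, and with the length trend removed -0.42 and -0.30. ATPIF1, the inhibitor of the ATP synthase, had 271, 297, 505, 614 and 226 in A1 to A5 and 94.3, 80.4, 315, 95.6 and 94.7 in C1 to C5. In 4 L-histidine birds it lay far under the controls and in C3 among them, for a log2 fold change of -1.49 ± 0.42 (SE). Its log2 fold change without A3 and A4 was -0.95. SDHD, a membrane anchor of complex II, had the same single exception in C3, with -0.91 ± 0.27 (SE), or -0.62 without A3 and A4. In the mitochondrial ribosome, MRPL49 and MRPS25 did not overlap and had -0.73 and -0.54, or -0.40 and -0.34 without A3 and A4. MRPL51 had -1.13 with overlapping groups, and -0.57 without A3 and A4. The cytosolic ribosome had a median of -0.32 over 68 genes with 5 nominally lower, which is 7.35% and so under the share of all genes, and its direction turned without A3 and A4 (median 0.04) and with the length trend removed (0.11). RPS29, with the smallest p of this list, had -0.79.

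The slow sarcomere list had the largest median log2 fold change of the lists examined, and it came from 1 bird. Of 21 genes of the slow sarcomere, 14 were nominally higher with a median log2 fold change of 3.94, and without C2 0 were, with 4 lower and a median of -0.28. MYH7B, a slow myosin heavy chain, had 0.409, 0.168, 18, 1.68 and 0.516 normalized FPKM in A1 to A5 and 0.306, 1378, 0.332, 2.58 and 0.363 in C1 to C5. TNNI1, slow troponin I, had 0, 0.195, 24.3, 2.57 and 0.952 and 0.332, 1256, 0.285, 1.69 and 0.0657. TNNT1, slow troponin T, had 0.721, 0.947, 22.6, 2.32 and 1.57 and 0.712, 1529, 0.428, 2.14 and 0.563. C2 alone held these transcripts at levels above 1000 normalized FPKM, A3 held them at 18 to 24.3, and A4 and C4 lay next with 1.68 to 2.58. MYL3, a slow myosin light chain, had 1702 in C2 and 0 to 14.9 in group A. The log2 fold changes of MYH7B, TNNI1, TNNT1 and MYL3 were 6.05, 5.49, 5.77 and 6.68 with C2 and turned to -2.21, -3.20, -2.53 and -2.90 without it. Without A3, A4 and C2 the log2 fold changes of the 4 genes were 1.30, 0.61, -0.16 and 0.61, and the median of the list was 0.17. TNNC1, the troponin C of slow fibres in mammals, was abundant in all birds of both groups. MYH7 was low throughout but also highest in C2, at 2.98 normalized FPKM against 0 to 0.0362 in the other birds. CSRP3, a Z-disc protein of the fast sarcomere list with a log2 fold change of 6.90, was high in the same bird, with 0.518, 0, 1.83, 0.688 and 0.0576 in A1 to A5 and 1.03, 348, 1.51, 0.159 and 2.28 in C1 to C5.

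**Figure D5:**
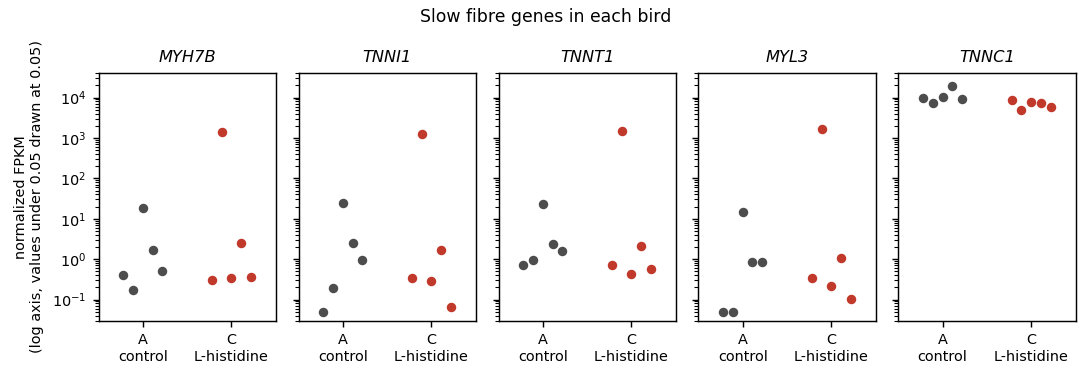
Normalized FPKM (log axis) of 5 genes listed as slow fibre markers in each control bird (A, grey) and L-histidine bird (C, red), with values under 0.05 drawn at 0.05. One L-histidine bird (C2) lies above 1000 in MYH7B, TNNI1, TNNT1 and MYL3, where all other birds lie under 25, and TNNC1 is high in all 10 birds.

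Among 40 genes of the fast sarcomere, 12 were nominally lower (30%) and 7 higher. Without C2, 0 were higher and 10 lower, and without A3 and A4, 6 were higher and 1 lower. MYBPH, a myosin-binding protein of the thick filament, had 568, 459, 1404, 1698 and 475 normalized FPKM in A1 to A5 and 459, 159, 299, 385 and 389 in C1 to C5. A3 and A4 lay at more than 2 times the level of any other bird, and the log2 fold change of -1.44 ± 0.41 (SE) became -0.56 without them. MYO7B, an unconventional myosin, was low in both groups, with 0.24 to 0.469 and 0.118 to 0.435. In the calpain system, which cleaves myofibrillar proteins in living and aging muscle, 1 of 10 genes was nominally higher (10%) and 1 lower (10%). CAPN1, the μ-calpain large subunit, had 36.1, 25.3, 44.4, 67.8 and 31.6 in A1 to A5 and 19.1, 18, 33.3, 25.4 and 22.2 in C1 to C5, a log2 fold change of -0.80 ± 0.27 (SE), or -0.39 without A3 and A4. CAPNS2, a small subunit, had 0.286, 0.34, 0.311, 0.506 and 0.61 in A1 to A5 and 1.08, 0.683, 1.07, 0.748 and 0.737 in C1 to C5, with no overlap and a log2 fold change of 1.07 ± 0.39 (SE) at under 2 normalized FPKM. CAPN3, the muscle calpain, had 59.8 ± 11.8 normalized FPKM over group A and 55.6 ± 16.9 over group C.

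Myogenic regulators lay on both sides, with 5 of 36 nominally higher and 5 lower. MYOD1, the transcription factor of myoblast commitment, had 94, 30.4, 123, 59.1 and 65.3 normalized FPKM in A1 to A5 and 247, 269, 98.7, 140.5 and 172 in C1 to C5. C3 alone lay within the control range, and the log2 fold change was 1.32 ± 0.37 (SE), or 1.56 without A3 and A4. HES1, a Notch target that holds back differentiation, had 84.1, 45.4, 125, 89.2 and 26.4 in A1 to A5 and 12.6, 7.83, 38.1, 30.3 and 14.5 in C1 to C5. Again C3 was the highest L-histidine bird, and it and C4 alone overlapped with the controls, through A5, for a log2 fold change of -1.84 ± 0.47 (SE). ID4, an inhibitor of helix-loop-helix factors such as MyoD, had 0.69 to 2.25 in group A and 0.258 to 0.652 in group C without overlap, with a log2 fold change of -1.72 ± 0.43 (SE), and TCF15, a mesodermal helix-loop-helix factor, one of -0.99 ± 0.28 (SE). The adjusted p of these 4 genes by edgeR's quasi-likelihood test was 0.295, and DESeq2 called MYOD1 (0.0409) and HES1 (0.0175). Unlike that of MYOD1, the log2 fold changes of HES1, ID4 and TCF15 were smaller without A3 and A4, at -1.33, -1.37 and -0.62. The summed level of 3 satellite cell markers was 26.9 to 89 normalized FPKM in group A, highest in A3 and A4, and 29.1 to 49.1 in group C.

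Of 30 genes of calcium handling and excitation, 7 were nominally higher and 6 lower, and without C2 the numbers were 2 and 4. CACNB1, the β subunit of the calcium channel that senses voltage in the fibre, had 23.9, 16, 27.6, 30.8 and 18.6 normalized FPKM in A1 to A5 and 11.3, 10.9, 15, 15.5 and 10.4 in C1 to C5. Between the lowest control bird and the highest L-histidine bird the gap was under 1 normalized FPKM, and the log2 fold change was -0.89 ± 0.22 (SE). ATP2C2, a calcium pump of the secretory pathway, had a log2 fold change of 2.07 ± 0.57 (SE), or 1.55 without C2. Its levels were 0.0181 to 0.296 in group A and 0.263 to 1.33 in group C. At the neuromuscular junction, 3 of 24 genes were nominally lower (12.5%), among them GRIP2 and CNTFR. Another 2 were higher (8.33%), with EPHA4, an ephrin receptor, at 1.78 ± 0.43 (SE).

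Few collagen genes reached the nominal limit. Of 49 genes of collagens and their processing, 2 were nominally higher (4.08%) and 2 lower (4.08%), under the shares of all genes, with a median log2 fold change of 0.10 and 36 of 49 members above 0, against 6012 of 11771 over all genes. With library totals 8 of the 49 were nominally higher and 0 lower, with a median of 0.37. Over all 11771 tested genes that scaling gave 1763 higher and 214 lower, with a median of 0.30. Without A3 and A4 the median of the collagen list was -0.058 with 26 members under 0. COL1A1, a chain of fibrillar collagen I, had 64.8, 31.6, 92.8, 38.9 and 82.2 normalized FPKM in A1 to A5 and 52.4, 57.4, 84.9, 34.9 and 34.8 in C1 to C5, and the groups overlapped over most of their range. COL3A1, the chain of collagen III, had 126 ± 50.3 normalized FPKM over group A and 136 ± 29.3 over group C, and SERPINH1, the collagen chaperone HSP47, 39.7 ± 4.86 normalized FPKM over group A and 34.6 ± 7.43 over group C. In the basement membrane list, 4 of 40 genes were nominally higher (10%) and 1 lower (2.5%). The smallest p-values were those of LAMA3, a laminin chain, at 1.29 ± 0.32 (SE), and CTGF, a matrix signaling protein, at 0.77 ± 0.21 (SE).

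In the remaining lists, immediate early and stress genes were lower in 10 of 45 and higher in 6 at the nominal limit. MIDN, midnolin, which carries nuclear proteins to the proteasome, had 38.8, 9.58, 59.2, 27.3 and 12.4 normalized FPKM in A1 to A5 and 12.3, 7.9, 2.74, 8.0 and 7.2 in C1 to C5, a log2 fold change of -1.95 ± 0.49 (SE). The control birds varied widely, and A2 lay within group C. NR4A1, an orphan nuclear receptor induced by activity, had 177, 165, 361, 250.2 and 195 and 126, 75.7, 123, 144 and 113, without overlap. Among heat shock proteins and chaperones 4 of 41 were nominally higher (9.76%) and 2 lower (4.88%). Among antioxidant enzymes 3 of 41 were higher (7.32%) and 5 lower (12.2%). CAT, catalase, was at 0.61 ± 0.24 (SE) and TXN, thioredoxin, at -0.59 ± 0.19 (SE). Without A3 and A4 CAT and TXN had 0.60 and -0.36, and with the length trend removed 0.54 and -0.18. Among 29 genes of creatine and adenine nucleotides, 6 were nominally lower (20.7%) and 2 higher. NMRK2, a muscle kinase that makes nicotinamide mononucleotide, had 168, 187, 366, 269 and 135 in A1 to A5 and 61, 87.5, 125, 132 and 75.3 in C1 to C5. Here A5 and C4 nearly met, and the log2 fold change was -1.23 ± 0.30 (SE), or -0.76 without A3 and A4. CKMT2, the mitochondrial creatine kinase, had -0.82 ± 0.28 (SE), or -0.49 without A3 and A4. Of 36 genes of cyclic nucleotide signaling, 7 were nominally higher (19.4%) and 1 lower, with a median log2 fold change of 0.29. These genes are long, with a median of 7239.5 exonic bases against 3333 over all tested genes. With the length trend removed, 4 were higher and 2 lower, and the median was 0.092. Without A3 and A4, 4 were higher and 1 lower, and the median was 0.11. PDE10A had a log2 fold change of 0.92 with the length trend removed. Beside PDE10A the nominally higher genes included CREB5, a transcription factor of the CREB family, at 2.0 ± 0.48 (SE), or 1.48 without C2. They also included MC5R, a melanocortin receptor, at 1.65 ± 0.44 (SE) and under 1 normalized FPKM in every bird.

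Group B shares its control birds with this comparison, so its levels are given only side by side and against group C directly. In a fit of all 15 birds, edgeR's quasi-likelihood test called 0 genes between group C and group B, and the smallest adjusted p was 0.986. In that test 487 genes had an unadjusted p under 0.05. About 589 of the 11771 tested genes would be expected under that limit if no gene differed. The intervals below are not adjusted for the number of genes. The level of SLC25A25 in group C was lower by a log2 difference of -1.01 (95% interval -1.96 to -0.05), and that of CA9, which was 29.2 to 48.9 normalized FPKM in group B, by one of -0.60 (-0.98 to -0.21). TCF24 was 0.172 to 0.862 in group B, and the difference of group C from it was 1.79 (0.80 to 2.79). EIF4EBP1 and NOCT in group C differed from group B by -0.66 (-1.09 to -0.23) and -1.20 (-2.13 to -0.26) on the log2 scale. For ASB2, at 21.9, 44.6, 7.37, 14.7 and 31.7 in group B, the difference was 0.20 (-0.77 to 1.17), for KY 0.14 (-0.45 to 0.74) and for PPM1K -0.0011 (-0.50 to 0.50). For CARNS1 it was -0.052 (-0.55 to 0.45). None of these differences passed the adjustment over all genes.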

How the data were processed

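Poly(A) RNA of breast muscle from 15 female KRC was sequenced with paired reads of 150 bases, and the 5 libraries of group A and the 5 of group C were compared. The deposited whole-number counts were made by the authors with HTSeq 0.6.1 from HISAT2 2.0.1 alignments to GRCg6a, after adapter removal by cutadapt 1.9.1. The deposited FPKM are the authors' scaling of these counts to exonic length and library total, and served only in 1 alternative filter. The sources used here do not give which kit prepared which library or whether counting used the strand, and overlapping genes and gene families may therefore share reads. Genes with a mean count of at least 10 were fitted with edgeR 4.0.16 in R 4.3.3 (RLE scaling, quasi-likelihood test, 8 residual degrees of freedom, robust fitting off, no covariate). Calls were made at a Benjamini-Hochberg adjusted p under 0.05 with a fold of 1.5 or more. Standard errors (SE) were derived from the F statistic. DESeq2 1.42.0 and limma 3.58.1 (voom) were run as alternatives on the same counts. Depth was 10620229 to 14964384 counts per bird, and precision was set by the spread between birds.

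Named were the 12 genes with the smallest p in each direction, LOC identifiers left out. They were taken from genes with a fold change of at least 1.5 and groups that did not overlap. Also named were up to 5 members of each list with the smallest p. Genes of carnosine, clock, calpain, collagen and atrophy biology were named whatever their p. So were the slow fibre markers MYH7B, TNNI1, TNNT1 and MYL3. The birds of the comparison were chosen by diet alone, and all gene lists were written with earlier results of these data known. Removal of the length trend used a lowess curve (span 0.5) of each library's log2 deviation on log2 exonic length as an offset. Each GRCg6a sequence was given the chromosome that most of its gene symbols have in RefSeq for GRCg7b. In the sequences so named, at least 93.8% of the matched symbols lay on that chromosome. Of the 11771 tested symbols, 10790 matched. Coordinates are those of the table, 1-based on GRCg6a. The fits were tested on 1 simulated data set with 200 changed genes, at an adjusted p under 0.05. There edgeR recovered 29% of 2-fold and 92% of 4-fold changes, and DESeq2 43% and 94%. Unchanged genes made up 9.02% of the calls by edgeR and 12.7% of those by DESeq2. Promoter sequences and qPCR were not analysed here.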

Additional observations from a re-analysis of the deposited data

Results flagged for a closer look

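Single birds far from the 4 others of their group, by Dixon's test at the 95% level, were found in 26 of 250 groups examined (125 named genes in 2 groups). For normally distributed values, chance alone flags about 1 group in 20. That rate need not hold here, since levels were taken on a linear scale and many of the genes were picked by p. All 26 flagged birds were the highest of their group. The levels are in normalized FPKM, with that of the nearest bird of the same group in brackets. A4 stood apart in KY at 128 (70.4), SLC7A5 at 82.2 (37.9), PGK1 at 10653 (5918), STBD1 at 994 (571), NDUFA12 at 244 (140.3), COX14 at 129 (81.5) and CKMT2 at 1159 (585). A3 stood apart in IRS2 at 4.29 (1.65), NR1D1 at 112 (37.3), MYH7B at 18 (1.68), TNNI1 at 24.3 (2.57), TNNT1 at 22.6 (2.32) and MYL3 at 14.9 (0.842). A2 did so in ULK1 at 4.6 (2.09). C2 was far above its group in SLC6A6 at 13.4 (2.12), ABCG1 at 1.62 (0.354), ACSBG1 at 1.43 (0.649), MYH7B at 1378 (2.58), TNNI1 at 1256 (1.69), TNNT1 at 1529 (2.14), MYL3 at 1702 (1.06) and CSRP3 at 348 (2.28). For C3 this held for MTHFD2 at 26.9 (20.9), ATPIF1 at 315 (95.6) and SDHD at 157 (84.3). C4 was highest of its group in SLC25A25 at 11.4 (6.99). Of the 26, 21 came from A3, A4 and C2, the birds that also stood apart in gene length trend, scaling or slow fibre genes. SLC25A25 was flagged through C4 alone, and without C4 its log2 fold change was -2.29.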

How the results depend on the processing

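Precision was limited by the spread between 5 birds a group. The edgeR count of genes called was 0 higher and 1 lower with TMM, with a filter on mean FPKM of at least 0.2, without a filter, with robust fitting, with limma-voom, with the gene length trend removed and without A3 and A4. Settings that gave 0 lower genes were library totals, all 15 birds (adjusted p of SLC25A25 0.164) and A3, A4 and C2 left out together, and DESeq2 gave 32 higher and 55 lower. The nominal counts (782 higher, 1056 lower) were 1763 and 214 with library totals, 391 and 287 without A3 and A4, and 354 and 303 without A3, A4 and C2. Leaving out 1 bird at a time gave 0 to 1 genes called higher, 1 to 4 called lower, 480 (without C2) to 983 (without C3) nominally higher and 461 (without A4) to 1409 (without A2) nominally lower. EDCH1 was called higher without A1, ASB2 without C1, and ASB12, SCN2B and a gene with a LOC identifier lower without C3. The choice of leaving out A3, A4 and C2 was made after seeing the data.

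The replicate number was entered as a block in 1 alternative, although birds of the same number came from different cages. Deviations of same-numbered birds correlated by -0.0905 to 0.153, and those of birds with different numbers by -0.291 to 0.324. Of 5 control birds, 1 correlated best with its own number. With so few birds this cannot tell whether same-numbered birds share more than a number. With the replicate block, 0 genes were called higher and 1 lower (SLC25A25, adjusted p = 0.0476), 832 and 1159 were nominal, and the log2 fold changes of MYH7B, TNNI1 and TNNT1 turned to -0.014, -0.46 and -0.35.

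Among 125 named genes, directions turned under at least 1 setting only in genes near 0 or high in a single bird, and the cause was not tested. With library totals the log2 fold changes were 0.0089 for CARNS1, 0.15 for CNDP2, 0.051 for HARS, 0.0064 for METTL9, 0.045 for MSTN, 0.20 for CAPN3, 0.030 for COL1A1 and 0.082 for SERPINH1. With the length trend removed they were -3.6e-04 for CARNMT1, 0.020 for MSTN and -0.070 for COL3A1. Without A3 and A4 they were 0.096 for CNDP2 and -0.058 for COL3A1. With C2 left out as well they were 0.11 for CNDP2, 0.015 for METTL9, 0.036 for NR1D1, -0.16 for TNNT1, 0.0010 for CAPN3 and -0.16 for COL3A1. With 1 bird left out at a time, they ranged from -0.079 to 0.25 for SLC15A4, -0.35 to 0.018 for MSTN, -2.21 to 8.68 for MYH7B, -3.20 to 8.27 for TNNI1, -2.53 to 7.82 for TNNT1, -2.90 to 9.76 for MYL3, -0.27 to 0.027 for CAPN3 and -0.043 to 0.34 for COL3A1. The description of promoter motifs was not run.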
